A study of Mus musculus with 4 samples.

Results

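The measurement described here is the difference between 2 temperature responses in mouse T helper 17 (Th17) cultures: the change from 37 to 39.5 °C in the pair of libraries labelled Smad4 knockout (KO), minus the same change in the wild-type (WT) pair. It was taken for each gene on the log2(RPKM + 1) scale, where RPKM is a read density, divided by exon length and library size, and for the 13715 of 19555 genes whose mean over the 4 libraries was at least 1 RPKM. Naive CD4+ T cells had been sorted from the spleens and lymph nodes of mice of the C57BL/6 strain that were either wild type or Smad4-deficient, and were activated and cultured for 3 days with IL-6 and TGF-β1. All groups share the strain, the source tissue, the cytokines and the culture time. The groups were WT at 37 °C, WT at 39.5 °C, KO label at 37 °C and KO label at 39.5 °C, with 1 library each. The design text names the animals only as Smad4-deficient, and the sources used here do not say which cells or exons carry the deletion. With 1 library in each group there is no replicate check and no test, so every difference below is a description of these 4 libraries. The 95% intervals cover counting error only.

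Th17 cells are helper T cells that make IL-17 cytokines, and their differentiation starts from IL-6, which acts through STAT3, together with TGF-β, which acts through SMAD proteins. SMAD4 is the common partner that enters the nucleus with the receptor-activated SMAD2 and SMAD3. Heat is known for inducing chaperone genes through the factor HSF1, and the design asks whether the response to it depends on Smad4.

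Smad4 itself stood at 14.05, 14.2, 20.7 and 21.3 RPKM in WT at 37 °C, WT at 39.5 °C, KO label at 37 °C and KO label at 39.5 °C, the order used for all sets of 4 values below. It was higher in both libraries with the KO label than in both WT libraries, and it barely moved with temperature in either pair (log2 0.01 in WT and 0.04 with the KO label). Since RPKM pools all exons, a deletion of some of them would not be visible, so the direction "with the KO label" rests on the label throughout. Its partner Smad3 stood at 24.98, 19.4, 41.9 and 29.9 RPKM, and the inhibitory Smad7 at 3.97, 4.14, 6.85 and 6.33 RPKM. Both had nearly the same temperature change in the 2 pairs, with differences of −0.12 and −0.15.

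The libraries held between 18047831 and 18473822 recovered reads, so by these reads none was shallower than the rest by more than a few percent. The library sizes behind the RPKM values ranged more widely, from 17639131 for KO label at 37 °C to 19308700 for WT at 39.5 °C. The T cell markers were present in all 4 libraries, with 12 of 12 measured and a summed level of 2604 to 2941 RPKM. Of the CD8 and NK markers 2 of 10 reached the minimum mean, with sums of 4.46 to 6.26 RPKM, and of the erythroid and platelet markers 0 of 10. Of the B cell markers 1 of 10 reached it, Ighm, with list sums of 14.9, 5.53, 9.59 and 4.78 RPKM. Of the myeloid markers 2 of 12 reached it, Ly6g and Cd68, with list sums of 13.1, 9.17, 54.5 and 13.3 RPKM. The high sum in the KO-labelled library at 37 °C came from Ly6g (9.97, 2.69, 50.1 and 4.73 RPKM), while Lyz2, Csf1r, Cd14 and Fcgr3 did not exceed 1.22 RPKM in any library. Cxcr1, a chemokine receptor gene best known from neutrophils and named after its values had been seen, had the same shape (0.295, 0.0695, 8.52 and 0.474 RPKM). S100a8, S100a9, Mpo and Itgam had no row under these names in the deposited values, so their level is not known. A row was present for 7 of the 12 myeloid and 4 of the 10 CD8 and NK markers. It was present for 4 of the 10 B cell and 2 of the 10 erythroid and platelet markers. Markers without a row count above as not reaching the minimum, although no level was available for them. In bulk RNA, fewer cells of a type and less RNA per cell cannot be told apart.

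Genes whose temperature response was lower with the KO label outnumbered those whose response was higher. The difference was at least 2-fold lower for 212 genes (1.55% of all genes) and 2-fold or more higher for 92 genes (0.671%), while its sign was balanced over all genes, with 50.4% below 0 and a median of −0.0028. Both counts depend on the added constant and the minimum: they were 416 and 212 with 0.1 RPKM added in place of 1, and 92 and 37 with a minimum mean of 5 RPKM. The rule that picked the 212 genes favours high values in KO label at 37 °C and WT at 39.5 °C and low values elsewhere. For the 92 genes it favours the reverse. Counts of extreme libraries thus largely restate the rule, and only the split between the favoured libraries is described. Among the 212 genes the highest library was the KO-labelled one at 37 °C for 130 and the WT one at 39.5 °C for 76. The lowest was WT at 37 °C for 127 genes. For the 92 genes the highest library was WT at 37 °C for 46 and KO label at 39.5 °C for 41, and the lowest was KO label at 37 °C for 51. Ly6g and Cxcr1 were themselves highest in the KO-labelled library at 37 °C, and the part of other cells in these counts was not tested.

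**Figure D1:**
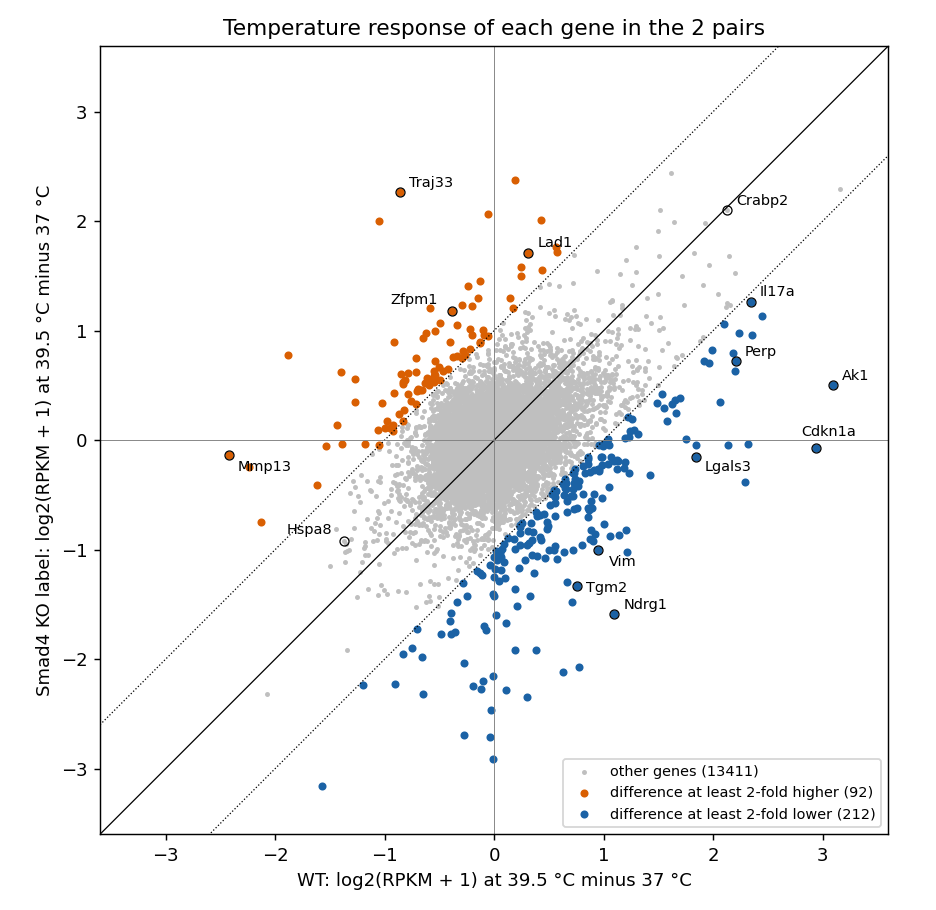
Each point is 1 of 13715 genes, with the log2 change from 37 to 39.5 °C in WT on the horizontal axis and in the KO-labelled pair on the vertical axis. The solid line marks equal responses and the dotted lines a 2-fold difference; the 212 blue genes lie below the lower line and the 92 orange genes above the upper line, with Cdkn1a and Ndrg1 far from the diagonal and Crabp2 close to it.

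Most genes that responded strongly in one pair responded less in the other. In WT 200 genes had an increase of 2-fold or more at 39.5 °C (1.46% of all genes) and 72 a decrease of that size (0.525%). The change of any size was below 0 for 53.5% of all genes in WT and 51.3% with the KO label. Sign counts of the lists below are to be read beside these shares. A response was called kept where the other pair changed at least 2-fold in the same direction, reduced where it changed in the same direction by 0.5 to 1 on the log2 scale, lost where it changed by less than 0.5 either way, and reversed where it changed by at least 0.5 in the opposite direction. Of the 200 genes 46 were kept, 68 reduced, 80 lost and 6 reversed with the KO label. Of the 72 genes 19 were kept, 25 reduced, 24 lost and 4 reversed. A set picked by size in one pair tends to sit nearer 0 in the other, so these counts alone do not show that the label weakens the response.

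Picking the genes in the KO-labelled pair gave the other view. There 103 genes had an increase of 2-fold or more at 39.5 °C (0.751% of all genes) and 125 a decrease of that size (0.911%). Among the 103 genes the WT pair had 46 kept, 19 reduced, 34 lost and 4 reversed. Among the 125 genes it had 19 kept, 25 reduced, 68 lost and 13 reversed, so 54.4% of the decreases seen with the KO label had no counterpart of 0.5 or more in WT. The genes 2-fold lower in WT had 33.3% in the same class, although both sets were picked in the same way. The share without a counterpart was therefore larger for decreases with the KO label than for decreases in WT, with no test of that difference.

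**Figure D2:**
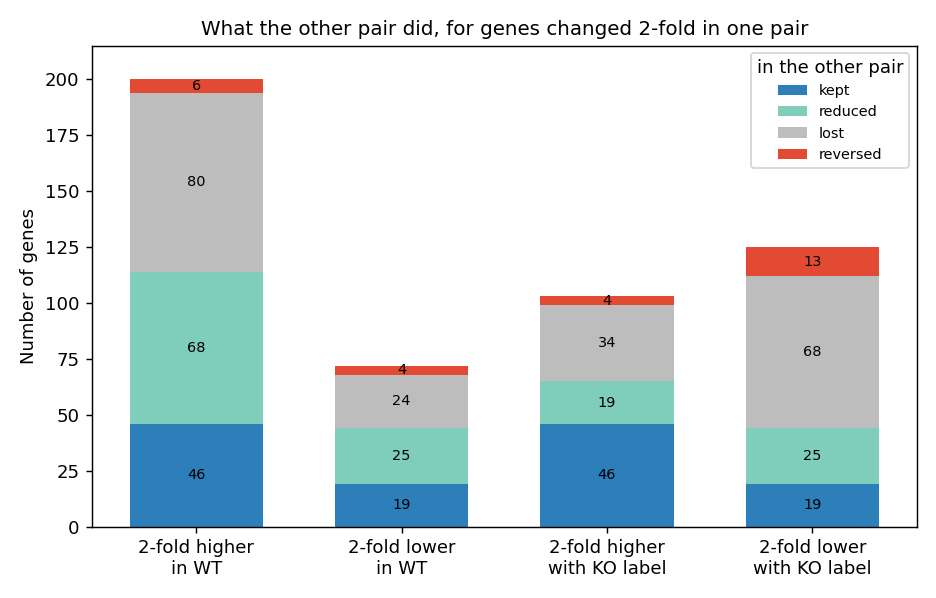
Each bar counts the genes at least 2-fold changed at 39.5 °C in 1 pair and 1 direction, split by what the other pair did. The bar of 125 genes 2-fold lower with the KO label has the largest lost segment as a share of its height, 68 genes.

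Where the WT response was lost or reversed, the level in the KO-labelled library at 37 °C was set beside the 2 WT levels. A set picked for WT levels far apart tends to lie between them in another library. Nothing about the label is therefore read from these counts. Of the 86 genes 2-fold higher in WT whose response was lost or reversed, 14 stood in the KO-labelled library at 37 °C at or above their level in WT at 39.5 °C. A further 49 lay between the 2 WT levels, and 23 lay at or below WT at 37 °C. Of the 28 corresponding decreases, 4 had already reached the WT level at 39.5 °C or gone beyond it, 16 lay between and 8 had not moved from the WT level at 37 °C or stood on its other side.

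Targets of p53 were higher at 39.5 °C in WT, and most of their strong responses were reduced or lost with the KO label. p53 is a stress-activated transcription factor whose targets arrest the cell cycle, repair DNA or promote apoptosis. Of 40 measured targets 18 were at least 2-fold higher at 39.5 °C in WT, against 1.46% of all genes, and 2 with the KO label, against 0.751%. The 18 split into 2 kept, 8 reduced and 8 lost. The list's median log2 change was 0.74 in WT and 0.26 with the KO label, and the median difference was −0.65, with 32 members below 0 and 8 of 40 at least 2-fold lower, against 1.55% of all genes. No member was at least 2-fold higher. Without the minimum mean the list's median difference was −0.35. Trp53 itself, whose protein is controlled mainly by its stability, stood at 91.7, 84.3, 90.8 and 98.9 RPKM.

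Cdkn1a, the gene of p21, an inhibitor of cyclin-dependent kinases (chromosome 17, 29090976 to 29100727, plus strand of GRCm38), had the largest negative difference among the better-expressed named genes. It stood at 22.3, 178, 137 and 130.3 RPKM, from 902, 7628, 5380 and 5333 reads. The WT library at 37 °C was the only low one, and both KO-labelled libraries lay near the level that WT reached at 39.5 °C. Its difference was −3.01, and the ratio of the RPKM ratios, KO label over WT, was 0.119 (95% interval 0.11002 to 0.129). Cdkn1a is also a target of TGF-β signalling and a member of that list.

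Other arrest and repair targets behaved alike in WT and apart with the KO label. The kinase gene Plk2 stood at 1.04, 5.88, 3.41 and 3.45 RPKM and had a difference of −1.74. The cyclin gene Ccng1 stood at 21.8, 56.1, 21.5 and 27.8 RPKM, with a difference of −0.97. Sesn2, a sestrin that restrains mTORC1 signalling, stood at 7.19, 25.6, 12.1 and 16.1 RPKM, with a difference of −1.31. In Plk2 the KO-labelled pair was flat at a level between the WT values, whereas in Ccng1 it was nearly flat at the WT starting level. Mdm2, the ubiquitin ligase that degrades p53, stood at 9.396, 16.1, 11.2 and 11.3 RPKM, so the WT library at 39.5 °C was high and the other 3 libraries were close together.

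Apoptosis targets were mixed in how much of their response they kept. Perp, a membrane protein of p53-dependent death, stood at 2.59, 15.5, 2.64 and 5.01 RPKM and had a reduced response with the KO label. The death receptor gene Fas stood at 1.86, 5.92, 3.24 and 3.53 RPKM, flat with the KO label. Bbc3, which encodes PUMA, stood at 5.22, 18.4, 11.8 and 19.4 RPKM and Pmaip1, which encodes NOXA, at 1.72, 4.93, 1.48 and 3.74 RPKM. For both BH3-only genes the KO-labelled pair was also higher at 39.5 °C, and Pmaip1 had a difference of only −0.19. Phlda3 and Psrc1 were the 2 kept members of the list, at 14.2, 65.1, 19.9 and 47.3 RPKM and 2.56, 18.4, 6.84 and 16.2 RPKM. Bax, the apoptosis effector, barely moved in either pair (66.3, 74.5, 61.5 and 73.99 RPKM). The adenylate kinase gene Ak1, which rests on few reads in 3 libraries (9, 459, 13 and 39 reads), stood at 0.191, 9.17, 0.284 and 0.817 RPKM.

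**Figure D3:**
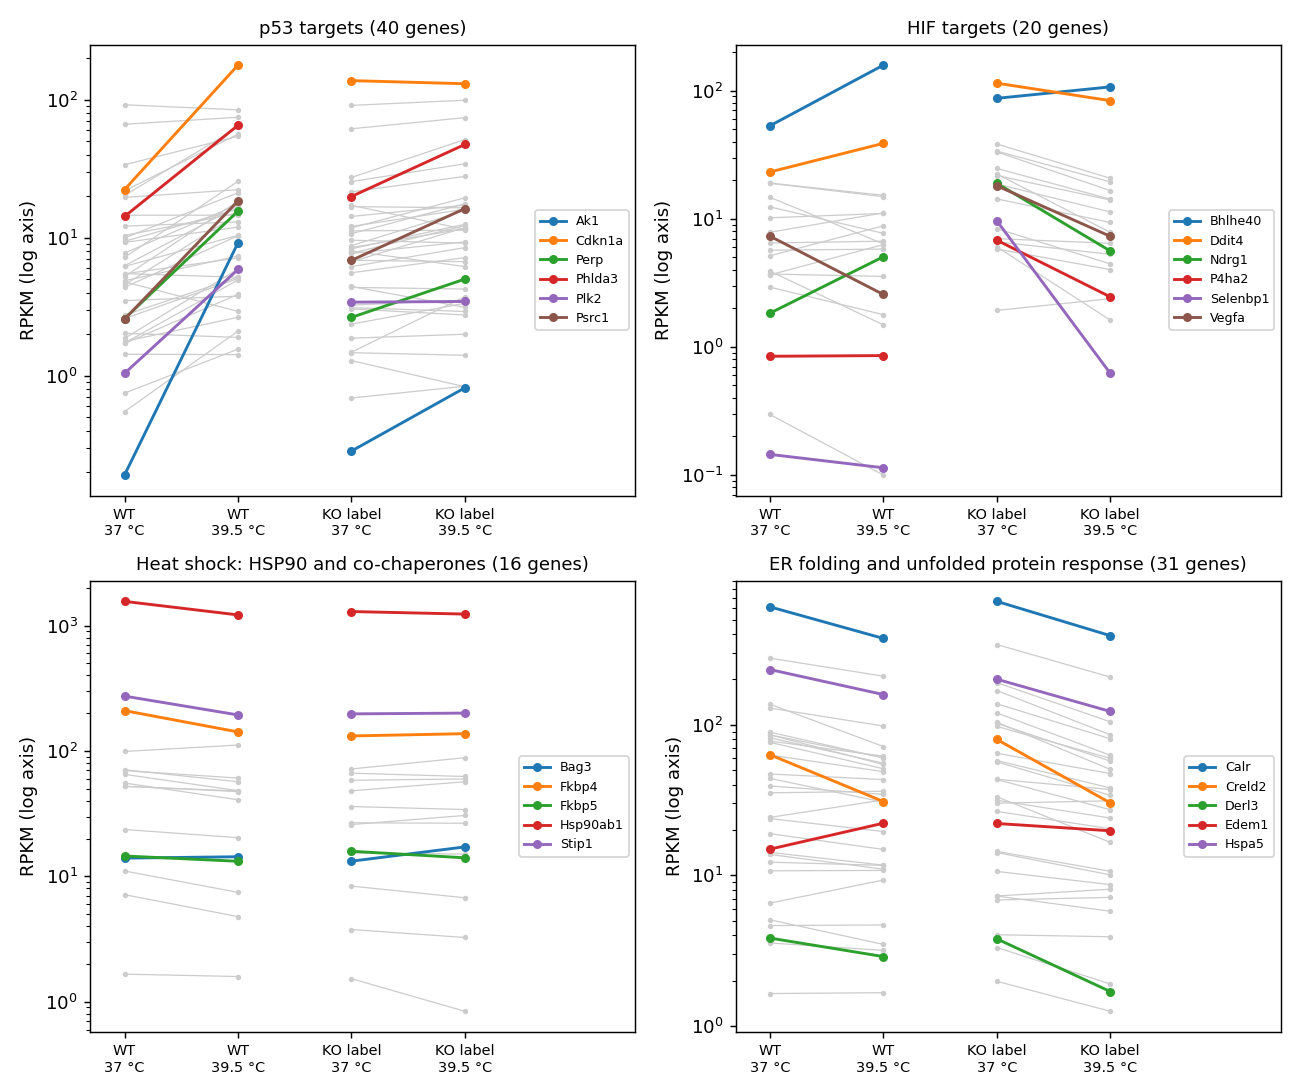
RPKM on a log axis in the 4 libraries, 1 line per gene and pair, for 40 p53 targets, 20 targets of hypoxia-inducible factor, 16 HSP90 and co-chaperone genes and 31 ER folding genes; grey lines are the members that are not named. The p53 targets slope up in WT and are flatter with the KO label, the HIF targets slope down with the KO label, and the ER genes slope down in both pairs.

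Targets of hypoxia-inducible factor (HIF) showed the opposite arrangement, with no common response in WT and a decrease with the KO label. HIF switches on glucose transport, glycolysis, mitophagy and collagen hydroxylation when oxygen is short, and T cell receptor and cytokine signals also induce it. Of 20 measured HIF targets 18 were below 0 with the KO label, against 51.3% of all genes, and 6 of them at least 2-fold lower, against 0.911%. In WT 10 were below 0, against 53.5% of all genes, and 10 above. The median log2 change was −0.02 in WT and −0.76 with the KO label, and the median difference −0.62. For 8 of the 20 the difference was at least 2-fold lower, against 1.55% of all genes.

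In the levels, the KO-labelled library at 37 °C stood apart. Ndrg1, a stress-induced gene of growth arrest (chromosome 15, 66929318 to 66969640, minus strand of GRCm38), stood at 1.83, 5.05, 18.9 and 5.5995 RPKM, high only in the KO-labelled library at 37 °C, and its ratio of ratios was 0.107 (95% interval 0.0901 to 0.128). Egln3, an oxygen-sensing hydroxylase of the HIF pathway itself, stood at 142, 113, 538 and 236 RPKM. P4ha2, a collagen prolyl hydroxylase, stood at 0.845, 0.855, 6.797 and 2.46 RPKM, flat in WT and lower at 39.5 °C with the KO label. In all 3 genes the KO-labelled library at 37 °C was the highest of the 4. Selenbp1 was nearly absent from WT and stood at 0.145, 0.114, 9.63 and 0.621 RPKM, with 6, 5, 386 and 26 reads. Mxi1, a MYC antagonist, stood at 10.2, 10.99, 38.3 and 20.7 RPKM.

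Some HIF targets changed in WT as well. Vegfa, the vascular growth factor gene, kept its decrease, at 7.32, 2.56, 18.1 and 7.29 RPKM, with nearly equal log2 changes of −1.22 and −1.20. Bnip3, a mitophagy receptor gene, was lower at 39.5 °C in both pairs (3.902, 1.49, 22.4 and 7.82 RPKM). Bhlhe40, a repressor that supports cytokine output in T helper cells, had a 2-fold increase in WT that was lost with the KO label (53.1, 158, 86.9 and 107 RPKM). Hif1a stood at 60.4, 80.7, 63.2 and 63.6 RPKM, with the WT library at 39.5 °C above the other 3.

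Glycolysis genes were lower at 39.5 °C in both pairs, with medians of −0.26 in WT and −0.42 with the KO label over 24 genes and a median difference of −0.14. The glucose transporter gene Slc2a3 stood at 7.05, 3.77, 111 and 28.998 RPKM, so the KO-labelled pair started far higher and had the larger decrease, with a difference of −1.14. Slc2a1, the main activated T cell glucose transporter, stood at 73.3, 43.03, 188 and 121 RPKM and had nearly the same change in both pairs (0.12). The rate-limiting enzyme gene Pfkp was flat in WT and lower with the KO label (18.9, 20.3, 41.9 and 26.1 RPKM), as was the hexokinase gene Hk1 (27.4, 28.9, 72.1 and 48.6 RPKM). Aldoc kept its decrease, at 5.28, 1.63, 59.9 and 21.5 RPKM. Glycolysis thus kept its direction, and 1 of its 24 members had a difference at least 2-fold lower, against 1.55% of all genes.

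The Il17 cytokine genes kept the direction of their increase, with smaller steps from lower levels. Il17a (chromosome 1, 20730905 to 20734496, plus strand of GRCm38) stood at 134, 686, 32.6 and 79.7 RPKM and was classed as kept, although its difference was −1.08 and its ratio of ratios 0.479 (95% interval 0.434 to 0.528). Il17f stood at 516, 1338, 206 and 292 RPKM and was classed as reduced. Il9 and the IL-23 receptor gene Il23r had similar log2 changes in both pairs, at 10.5, 42.8, 1.59 and 9.22 RPKM and 2.25, 6.66, 1.53 and 4.13 RPKM. Il21, a cytokine that amplifies Th17 and follicular helper cells, stood at 54.2, 94.4, 65.6 and 61.2 RPKM, higher in WT and flat with the KO label. Il10 had 50, 53, 32 and 0 reads, flat in WT and without a read in the KO-labelled library at 39.5 °C, where a count of 0 allows up to 3 reads.

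Among 21 measured T helper cytokine genes the median log2 change was 0.52 in WT and −0.10 with the KO label, and 7 had a difference at least 2-fold lower, against 1.55% of all genes. The median difference of −0.87 came down to −0.038 over the members with a mean of at least 5 RPKM. Lymphotoxin α, encoded by Lta, had a 2-fold increase in WT and a small decrease with the KO label (160.1, 333, 387 and 287 RPKM). Lif, a cytokine of the IL-6 family, stood at 73.2, 134, 113 and 99.9 RPKM, with a difference of −1.03. Csf1, the macrophage growth factor gene, stood at 2.32, 8.37, 2.63 and 4.13 RPKM. In each of these 3 genes the WT library at 37 °C was the lowest. Il24 and Tgfb3 reached a level above 2 RPKM only in the KO-labelled library at 37 °C, at 0.515, 0.972, 3.97 and 0.314 RPKM and 0.227, 0.398, 9.301 and 1.73 RPKM. Spp1, which encodes osteopontin, kept its increase (3.73, 13.8, 6.09 and 27.2 RPKM).

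Transcription factors and receptors of the Th17 signature differed in direction. Il1r1, the IL-1 receptor gene, stood at 2.899, 13.8, 1.05 and 2.38 RPKM, a reduced response from a lower level. Stat3 was flat in WT and lower at 39.5 °C with the KO label (32.7, 32.5, 45.4 and 35.6 RPKM). Irf4 was lower at 39.5 °C in both pairs, and more so with the KO label (499, 456, 528 and 389 RPKM). Batf and Ahr went the other way. Batf, an AP-1 pioneer factor, was flat in WT and higher with the KO label (116, 116, 46.6 and 61.9 RPKM), and the ligand-activated factor Ahr was lower at 39.5 °C in WT and higher with the KO label (29.7, 22.9, 12.2 and 16.9 RPKM). Over the 28 genes of the signature the median difference was −0.32, with 20 below 0 and 3 at least 2-fold lower, against 50.4% and 1.55% of all genes.

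Chemokine genes were higher at 39.5 °C in both pairs for all 7 measured. Ccl4 and Xcl1 were classed as reduced with 1 RPKM added, at 2.495, 15.1, 1.29 and 2.55 RPKM and 7.77, 33.1, 0.759 and 1.87 RPKM. Xcl1 had only 7 and 18 reads in the KO-labelled pair. The interval of its ratio of ratios held 1 (0.579, 95% interval 0.233 to 1.44), so a smaller step is not settled by these reads. Ccl20, the ligand of the Th17 receptor CCR6, stood at 60.96, 84.9, 96.8 and 146 RPKM, and Ccl5 at 2.12, 3.24, 7.03 and 13.9 RPKM, both with a larger step with the KO label. For Ccl5 the interval of the ratio of ratios also held 1 (1.29, 95% interval 0.81 to 2.05). Ccl3 showed the effect of the added 1 RPKM: its difference was −0.87, yet its ratio of ratios was 3.3004 (95% interval 0.423 to 25.7), with 1 read in the KO-labelled library at 37 °C. Its direction is therefore not settled by these reads. Among 9 chemokine receptors Cxcr4 had opposite responses (11.2, 19.6, 33.6 and 21.5 RPKM), Cxcr3 a reduced one (2.32, 6.73, 3.83 and 6.97 RPKM), and Ccr6 a small increase in both pairs (28.3, 33.5, 4.98 and 6.62 RPKM).

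Genes of the TGF-β and SMAD pathway had a median difference of −0.14 over 34 members, with 28 below 0. The 13 measured SMADs and corepressors ranged from −0.47 to 0.09 in the difference, and none passed the 2-fold rule; the same held for the 8 receptors. The 2-fold differences, all on the low side, were in 2 of 4 ligands and activators and 2 of 9 targets, against 1.55% of all genes. Lrrc32, whose product GARP holds latent TGF-β on the cell surface, was lower at 39.5 °C in both pairs (1.99, 0.674, 61.6 and 15.1 RPKM). The difference of Lrrc32 was −1.12 with 1 RPKM added, while its ratio of ratios of 0.726 (95% interval 0.538 to 0.978) did not reach 2-fold. Id3, an inhibitor of E-protein factors, was lower at 39.5 °C in WT and slightly higher with the KO label (15.9, 8.79, 14.4 and 15.9 RPKM), while its relative Id2 stood at 74.7, 81.9, 100.5 and 99.96 RPKM.

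Genes of regulatory T cells also had lower responses with the KO label. Their median log2 change was −0.03 in WT and −0.36 with the KO label over 17 genes, with 14 differences below 0. The costimulatory receptor gene Tnfrsf9, which encodes 4-1BB, stood at 51.5, 75.7, 198 and 97.98 RPKM, higher at 39.5 °C in WT and lower with the KO label. Foxp3, the lineage factor, was lower at 39.5 °C in both pairs (7.803, 5.102, 1.98 and 0.477 RPKM, from 567, 393, 139 and 35 reads). Nrp1, a semaphorin receptor, kept its increase (0.8696, 7.59, 0.3302 and 2.83 RPKM) and Gpr83 its decrease (5.69, 1.63, 19.5 and 4.43 RPKM). Izumo1r, a folate receptor family gene, also changed alike in both pairs (31.9, 16.5, 163 and 79.6 RPKM).

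Some of the named genes changed in opposite directions in the 2 pairs. Opposite signs were found for 149 of the 212 genes with a 2-fold lower difference (70.3%), for 74 of the 92 with a higher one (80.4%) and for 39.5% of all genes. Picking genes by a large difference favours opposite signs, so nothing is read from these shares. Tgm2, a transglutaminase that crosslinks proteins, stood at 15.7, 27.2, 228 and 89.9 RPKM. Vim, which encodes the intermediate filament vimentin, stood at 70.8, 138, 246 and 123 RPKM. Both were high in the KO-labelled library at 37 °C and came down to or towards the WT range at 39.5 °C. Basp1, a membrane protein that binds the cytoskeleton, stood at 7.57, 12.2, 24.2 and 4.79 RPKM, and the calcium pump gene Atp2b4 at 2.47, 6.99, 7.27 and 3.67 RPKM. Ypel5 stood at 2.81, 7.38, 10.4 and 5.26 RPKM, Prss12 at 8.08, 15.6, 10.3 and 5.05 RPKM and Bcl2, the survival gene, at 4.196, 6.62, 18.03 and 10.8 RPKM.

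**Figure D4:**
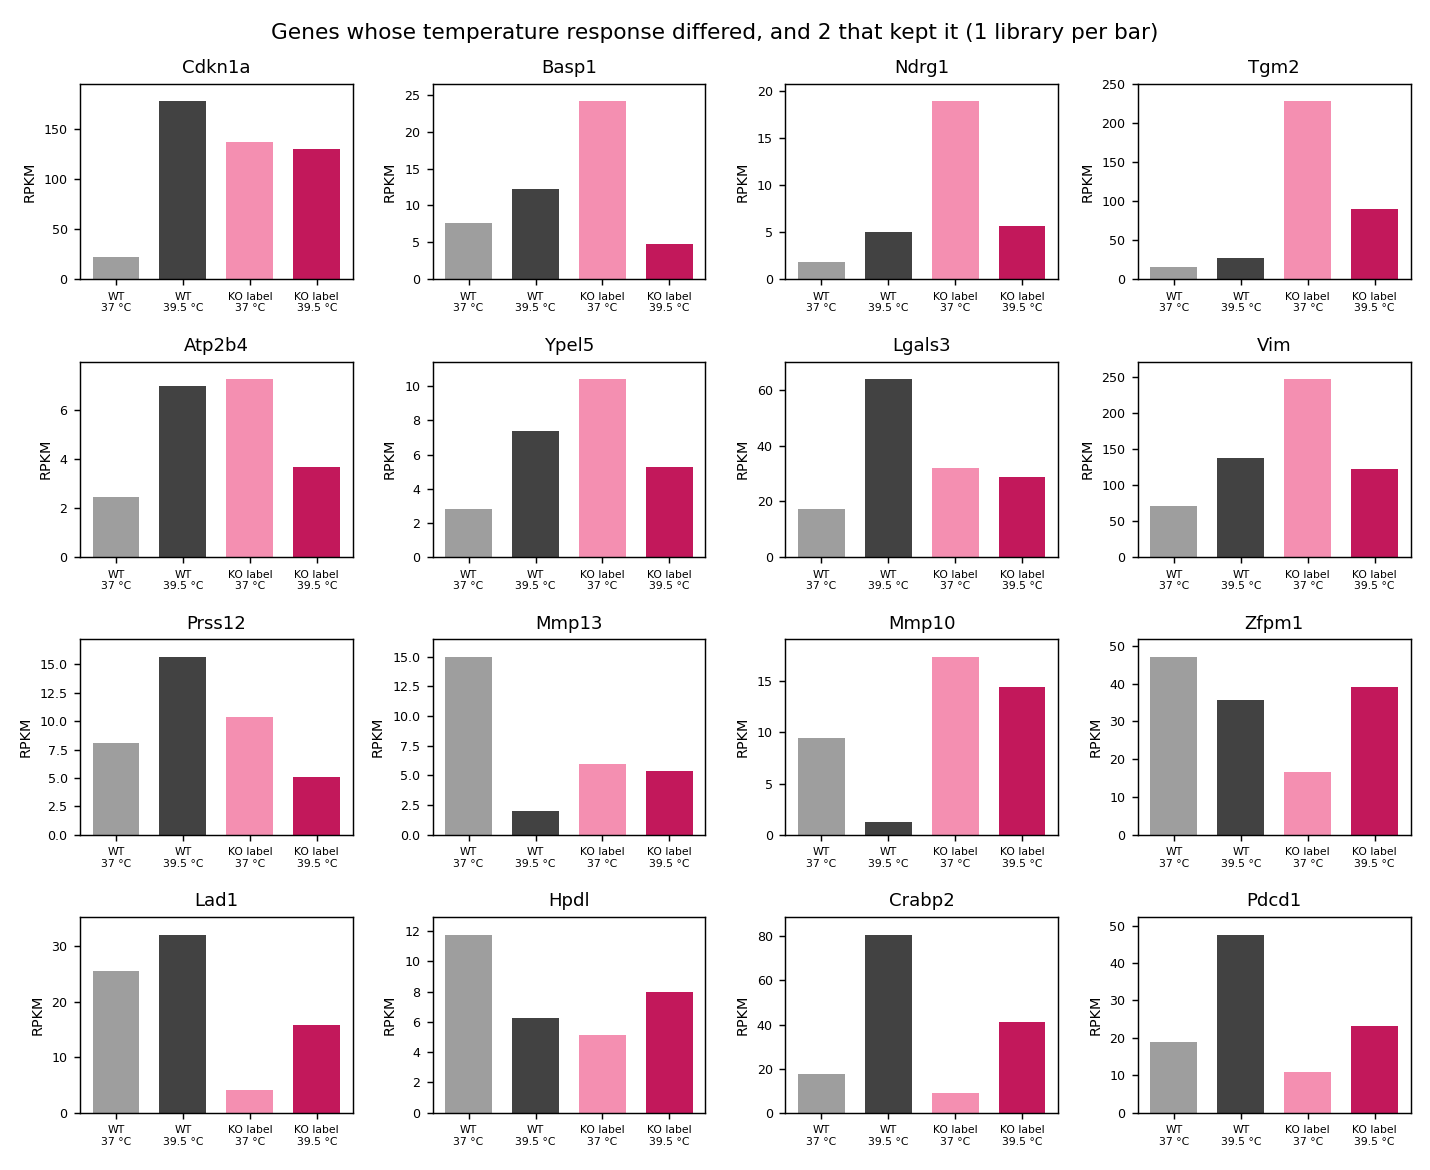
RPKM in each of the 4 libraries for 16 genes, 1 bar per library and an axis from 0 in each panel; there are no error bars because each group has 1 library. Ndrg1, Tgm2 and Vim peak in the KO-labelled library at 37 °C, Cdkn1a and Lgals3 step up only in WT, and Crabp2 and Pdcd1 are higher at 39.5 °C in both pairs.

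Galectin and annexin genes shared that shape in part; both families were picked by name after their values had been seen. Lgals3, which encodes the carbohydrate-binding galectin-3, stood at 17.1, 63.8, 32.1 and 28.8 RPKM, a step in WT only, with a ratio of ratios of 0.241 (95% interval 0.212 to 0.273). Anxa2, a calcium-dependent membrane-binding annexin, stood at 15.3, 42.9, 60.1 and 47.9 RPKM, and Anxa4 at 2.77, 6.61, 5.15 and 6.35 RPKM. Their 2-fold WT increases were lost. Lgals3bp and Lgals7 were higher at 39.5 °C by similar steps in both pairs, at 23.5, 38.6, 89.9 and 144 RPKM and 1.95, 4.69, 17.5 and 38.6 RPKM. Lgals3bp came in by its name and encodes a binding protein of galectin-3, not a galectin. Of 8 annexin rows 8 were above 0 in WT and 4 with the KO label, and 2 of these rows are pseudogenes of Anxa11 whose reads are uncertain by gene.

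Heat shock chaperone genes, cytosolic and mitochondrial ones among them, and those of the endoplasmic reticulum (ER) differed in how the label touched their response. Heat shock genes are driven by HSF1 through heat shock elements, repeats of the unit nGAAn in alternating orientation. ER chaperone genes are driven by ATF6 and XBP1 through the ER stress element. The window searched, on both strands, ran from 250 bases before the start of each gene to a short stretch after it. There the heat shock element GAANNTTCNNGAA was found in 179 of 27025 genes (0.66%). Among the 41 heat shock genes with a promoter in the table it was found in 5 (12.2%): Hsph1, Chordc1, Dnajb6, Hspd1 and Hspe1. The ER stress element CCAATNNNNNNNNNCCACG was found in 37 of 27025 genes (0.14%) and in 9 of 23 ER genes (39.1%), among them Hspa5, Calr and Creld2. A gene without a match lacks only these letters in this window. A promoter of each kind, and an ER gene with the element on the other strand, are shown because the groups behaved differently; the motif is in capitals, with overlapping matches run together in Hspe1. They are RefSeq sequences of GRCm38.p6, plus strand, each ending at the base before the start.
Hspe1, chr1:55087898-55088147: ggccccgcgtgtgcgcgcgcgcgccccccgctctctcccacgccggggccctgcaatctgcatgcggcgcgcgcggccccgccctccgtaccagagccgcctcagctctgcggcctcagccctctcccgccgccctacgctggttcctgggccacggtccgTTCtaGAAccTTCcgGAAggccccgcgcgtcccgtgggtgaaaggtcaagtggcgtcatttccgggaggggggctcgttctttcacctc
Hspa5, chr2:34771840-34772089: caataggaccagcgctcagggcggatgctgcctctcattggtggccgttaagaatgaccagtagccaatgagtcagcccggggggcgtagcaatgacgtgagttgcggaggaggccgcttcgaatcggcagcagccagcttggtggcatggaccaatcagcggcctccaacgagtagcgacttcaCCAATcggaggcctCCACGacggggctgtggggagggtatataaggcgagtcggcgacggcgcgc
Creld2, chr15:88819396-88819645: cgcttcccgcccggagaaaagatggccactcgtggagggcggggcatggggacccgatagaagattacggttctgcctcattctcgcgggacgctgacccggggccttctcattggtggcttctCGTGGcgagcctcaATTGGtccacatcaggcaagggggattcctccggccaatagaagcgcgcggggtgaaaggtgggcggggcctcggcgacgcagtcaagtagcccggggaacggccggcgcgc

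The ER list was lower at 39.5 °C in both pairs, with medians of −0.33 in WT and −0.59 with the KO label over 31 genes. Of these, 24 were below 0 in WT and 28 with the KO label, and 26 had a negative difference, although none passed the 2-fold rule. Hspa5, which encodes the ER HSP70 BiP, stood at 233, 159, 201 and 123 RPKM, and Calr, a lectin chaperone, at 607, 374, 659.8 and 391 RPKM. Creld2 kept a 2-fold decrease, at 63.3, 30.9, 79.9 and 30.3 RPKM. In these 3 genes both libraries at 39.5 °C lay below both libraries at 37 °C. Xbp1, the factor of the unfolded protein response, stood at 76.4, 51.01, 169 and 85.9 RPKM. Edem1, which marks misfolded glycoproteins for disposal, departed from the list: it was higher at 39.5 °C in WT only (14.9, 22.2, 22.1 and 19.8 RPKM).

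The heat shock list was below 0 in WT and near 0 with the KO label. Over 51 genes the medians were −0.13 and −0.02, with 37 differences above 0 and none past the 2-fold rule. The shift was larger among the 16 HSP90 and co-chaperone genes, with medians of −0.26 and −0.02 and 14 differences above 0. Fkbp4, an HSP90 co-chaperone, stood at 209.7, 142, 132 and 137 RPKM, and Stip1, which links HSP70 to HSP90, at 274, 194, 198 and 200.4 RPKM. Trap1, the mitochondrial HSP90, stood at 65.1, 48.3, 58.4 and 59.8 RPKM. In all 3 the WT library at 37 °C was the highest and the KO-labelled pair was flat. Hspe1, the partner of the mitochondrial chaperonin, stood at 82.6, 64.6, 50.8 and 56.01 RPKM.

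Within the HSP70 and HSP110 family the 2 genes with a 2-fold decrease in WT parted. Hspa8, the constitutive HSP70, retained a decrease with the KO label (795, 307, 466 and 245 RPKM), classed as reduced. Hsph1, the HSP110 exchange factor, stood at 40.2, 17.997, 12.4 and 11.3 RPKM, so the KO-labelled pair was flat at a level below WT at 39.5 °C. Its difference of 0.99 was just outside the 2-fold rule.

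Most growth genes of the MYC program were lower at 39.5 °C in WT and not with the KO label. MYC drives ribosome production and nucleotide synthesis in activated T cells. Of 29 genes of this group 25 were below 0 in WT and 8 with the KO label, the medians were −0.31 and 0.07, and 28 had a positive difference. Myc stood at 483, 295, 379 and 321 RPKM, lower at 39.5 °C in both pairs but less with the KO label. Srm, which makes spermidine, stood at 429.6, 343, 231 and 309 RPKM, Rrp9, a ribosomal RNA processing factor, at 79.4, 61.3, 40.98 and 51.98 RPKM, and Cad, the first enzyme of pyrimidine synthesis, at 115, 84.3, 84.6 and 93.2 RPKM. In these 3 genes the WT library at 37 °C was the highest and the KO-labelled library at 37 °C was lower than that at 39.5 °C. Mxd1, a MYC antagonist, was the only member with a negative difference (1.67, 4.01, 5.99 and 3.98 RPKM). The cytosolic ribosomal protein genes did not share this, with medians of −0.16 and −0.12 over 73 genes.

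Sterol and fatty acid synthesis genes, most of them targets of SREBP factors, had a smaller decrease with the KO label than in WT. Over 31 genes the medians were −0.49 in WT and −0.16 with the KO label, and 28 had a positive difference, none at least 2-fold. Dhcr7, a late enzyme of cholesterol synthesis, stood at 19.5, 11.1, 19.9 and 18.5 RPKM. The WT library at 39.5 °C was low and the other 3 were close together. In the serine and one-carbon supply genes, Phgdh (62.03, 43.1, 56.8 and 60.3 RPKM) and Shmt2 (223, 149, 168 and 163 RPKM) followed the sterol genes, whereas Asns (29.6, 20.1, 27.1 and 20.5 RPKM) was lower at 39.5 °C in both pairs.

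Cell cycle genes split by phase. All 40 measured mitosis genes were above 0 in both pairs, with medians of 0.80 in WT and 0.45 with the KO label, and 39 of 40 had a negative difference. In WT 7 of the 40 were at least 2-fold higher, against 1.46% of all genes, and they became 6 reduced and 1 lost. Nusap1, a spindle protein, stood at 4.52, 12.5, 5.098 and 7.65 RPKM, and the cyclin gene Ccnb1 at 5.77, 13.3, 6.64 and 9.98 RPKM. Mki67, the proliferation marker, stood at 15.7, 29.8, 13.8 and 19.1 RPKM. DNA replication genes shifted the other way, with medians of 0.16 in WT and 0.36 with the KO label over 38 genes and 34 positive differences. Pold1, the catalytic subunit of polymerase δ, stood at 44.4, 39.6, 36.4 and 50.7 RPKM, and the helicase subunit gene Mcm5 at 140.01, 124, 99.1 and 127 RPKM. Both were slightly lower at 39.5 °C in WT and higher with the KO label. No mitosis or replication gene passed the 2-fold rule for the difference.

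Of 41 histone genes 36 were higher at 39.5 °C in WT and 39 with the KO label (medians 0.37 and 0.56), and 3 of them had a difference at least 2-fold higher, against 0.671% of all genes. These were Hist1h2an, Hist1h2ak and Hist1h4f, at 16.1, 15.02, 8.7995 and 18.1 RPKM, 8.94, 10.02, 5.77 and 15.6 RPKM and 1.404, 1.06, 0.86996 and 2.78 RPKM. Their reads are few, 10, 8, 6 and 20 in Hist1h4f, and histone copies are near-identical, so the values are uncertain by gene.

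Some strong responses were of the same size in both pairs. Crabp2, a retinoic acid binding protein (chromosome 3, 87948666 to 87953376, plus strand of GRCm38), stood at 17.6, 80.6, 8.88 and 41.3 RPKM, with log2 changes of 2.13 and 2.10 and a ratio of ratios of 1.02 (95% interval 0.848 to 1.22). It started from different levels in the 2 genotype labels and kept the size of its step. The inhibitory receptor gene Pdcd1, which encodes PD-1, also kept its increase (18.9, 47.5, 10.96 and 23.1 RPKM), as did Tnfsf11, which encodes RANKL (6.28, 18.2, 6.79 and 18.1 RPKM) and the decoy receptor gene Il1r2 (9.38, 28.4, 5.497 and 19.8 RPKM). Igfbp7 (7.901, 18.98, 12.6 and 30.3 RPKM) and Rgs16 (15.5, 39.5, 6.45 and 20.5 RPKM) did so too; these last 4 genes were chosen after their values had been seen.

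Among the named genes with a higher difference and an mRNA product, Mmp13 and Mmp10 had the largest values. These matrix metalloproteinase genes, both on chromosome 9, stood at 14.95, 1.98, 5.96 and 5.34 RPKM and 9.404, 1.203, 17.4 and 14.4 RPKM. The WT library at 39.5 °C was the lowest for both, and the ratios of ratios were 6.78 (95% interval 5.19 to 8.86) and 6.51 (95% interval 4.57 to 9.27). The collagen IV chain genes Col4a1 and Col4a2, chosen after their values had been seen, stood at 10.2, 4.59, 13.1 and 14.2 RPKM and 8.67, 4.46, 15.1 and 18.4 RPKM. They had the same shape, with differences of 1.11 and 1.09.

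Other genes on the high side were higher at 39.5 °C mainly with the KO label. Zfpm1, which encodes the GATA cofactor FOG1, stood at 47.04, 35.7, 16.8 and 39.2 RPKM, and the filament-anchoring gene Lad1 at 25.6, 31.97, 4.102 and 15.7 RPKM. In both genes the KO-labelled library at 37 °C was the low one. Hpdl stood at 11.7, 6.26, 5.15 and 8.01 RPKM, with opposite changes in the 2 pairs. Among immune receptors Slamf6 was lower at 39.5 °C in WT only (4.31, 1.898, 4.899 and 5.94 RPKM), and Btla (45.02, 45.5, 18.9 and 34.2 RPKM) and Cd200 (111, 162, 45.1 and 104 RPKM) were higher at 39.5 °C mainly with the KO label. Tcf7, which encodes TCF-1 of naive and memory T cells, was higher only there as well (174, 163, 199 and 281 RPKM). Bcl2a1a and Bcl2a1d, near-identical survival genes that are uncertain by copy, stood at 18.03, 15.3, 13.98 and 22.2 RPKM and 28.9, 25.7, 22.3 and 39.1 RPKM.

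Large positive values also stood in short genes, T cell receptor joining segments with few reads and the mitochondrial tRNAs mt-Te and mt-Ty with more. Traj33 stood at 5.78, 2.73, 1.99 and 13.3 RPKM from 6, 3, 2 and 14 reads, and Traj52 at 10.8, 4.71, 1.72 and 9.88 RPKM from 13, 6, 2 and 12. The counting intervals of their ratios of ratios were wide, 14.2 (95% interval 1.87 to 108) and 13.2 (95% interval 2.22 to 78.5). In the difference, 8 of the 44 joining segments passed the 2-fold rule on the high side and 6 on the low side, and of 17 mitochondrial tRNAs 4 and 4, against 0.671% and 1.55% of all genes. Among the tRNAs, mt-Te stood at 306, 276, 36.2 and 90.5 RPKM from 385, 368, 44 and 115 reads, with a ratio of ratios of 2.78 (95% interval 1.91 to 4.04). The tRNA mt-Ty stood at 163, 104, 33.8 and 65.7 RPKM from 199, 134, 40 and 81 reads, with a ratio of 3.05 (95% interval 1.97 to 4.73). The other tRNAs past the rule had at most 15 reads in any library. These were mt-Tg and mt-Tw on the high side and mt-Tk, mt-Tm, mt-Tq and mt-Tt on the low side. Protein-coding genes gave 28 of the 92 higher and 128 of the 212 lower genes, against 8910 of all 13715. A further 34 of the 92 and 52 of the 212 had no single name in the annotation, as did 3969 of all genes. The kind of these genes was not known.

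**Figure D5:**
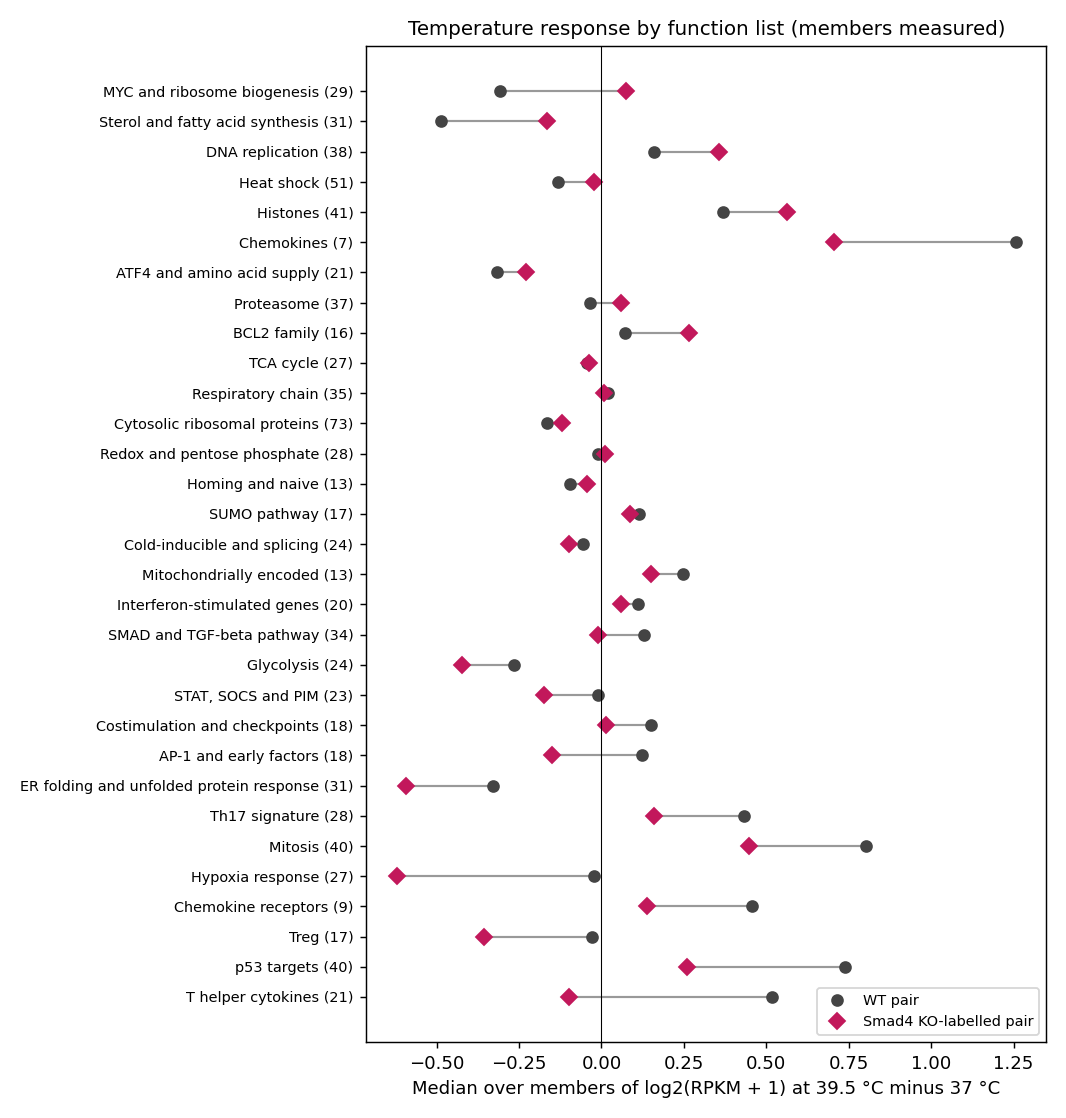
Median log2 change from 37 to 39.5 °C over the measured members of 31 function lists, with WT as circles and the KO-labelled pair as diamonds, ordered by the median difference over members. T helper cytokines, p53 targets and hypoxia genes have the KO-labelled value left of WT, MYC and sterol genes have it right of WT, and respiratory chain and TCA genes have both near 0.

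Lists of housekeeping function differed little between the pairs. The median difference was 0.06 for 27 TCA cycle genes, 0.05 for 35 respiratory chain genes, −0.08 for 13 mitochondrially encoded genes, 0.10 for 37 proteasome genes and −0.03 each for 24 splicing and cold-inducible genes and 17 SUMO pathway genes. None of their members passed the 2-fold rule for the difference. The mitochondrially encoded genes were themselves mostly higher at 39.5 °C, for 10 of 13 in each pair, with medians of 0.25 in WT and 0.15 with the KO label. AP-1 and other early factors differed more, with medians of 0.12 in WT and −0.15 with the KO label over 18 genes and a median difference of −0.24. The difference was at least 2-fold lower for 2 of the 18, Fos (−1.19) and Ier3 (−1.07), against 1.55% of all genes. Fos stood at 1.07, 1.37, 3.76 and 1.39 RPKM and Ier3 at 3.88, 4.08, 34.99 and 16.8 RPKM. STAT, SOCS and PIM genes were below 0 for 12 of 23 in WT, near the 53.5% of all genes. With the KO label 21 of 23 were below 0, against 51.3%. The feedback inhibitors Socs3 and Cish stood at 5.37, 5.84, 16.4 and 10.2 RPKM and 27.9, 36.3, 71.5 and 51.98 RPKM. Both were lower at 39.5 °C with the KO label, while in WT Cish was higher and Socs3 nearly flat.

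The 2-fold rule divides a continuous range. On the low side Slc25a24 lay just inside it with a difference of −1.001 and Dock11 just outside with −0.999. On the high side RP23-392I13.6 lay just inside with 1.004 and Snord35a just outside with 0.992.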

How the data were processed

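RNA of 4 cultures was sequenced, 1 library per group, with groups read from the labels for genotype and treatment. Per the labels' protocols, Trizol extraction was followed by a NEXTflex RNA-seq kit, whose strandedness the sources used here do not give. The submitters' processing notes name mm10 as the build and, as tools, edgeR, Subread, featureCounts, Bowtie2 and Trim Galore 0.4.4. The authors deposited 1 table of RPKM values per library, in which library size and exon length are both divided out.

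Tables were joined on gene name with Python 3.11.15, numpy 2.4.6 and pandas 2.3.3, and 1 repeated name was kept as separate rows. Values were analysed as log2(RPKM + 1), which understates the change of low genes, for rows whose mean over the libraries reached 1 RPKM. Whole reads were recovered from RPKM, exon length and library size, within 0.01 reads. This held for 12053 of 13143 rows (91.7%) at the exon length of GENCODE vM21. It held for 19554 of 19555 rows at that length or, failing that, at a length fitted to the values. A fitted length was the shortest that gave whole reads, so it yields the fewest reads the values allow. Because RPKM is not a count, and because 1 library per group leaves no residual degrees of freedom, no test was run. The interval of a ratio of ratios is a large-sample 95% interval from the recovered reads. The sources used here name no molecular identifiers, so PCR copies may be among the reads and the intervals cover counting error only. The script was tested on simulated data.

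Named genes were the 12 largest differences in each direction among rows whose mean over the libraries reached 5 RPKM, without predicted genes; up to 4 members of each of 31 function lists with the largest difference; up to 2 members per list that changed 2-fold alike in both pairs; and a fixed set. Other genes named were chosen after their values had been seen, and some genes that the rule picks are not reported here. The members and lists were chosen with earlier results of these data known, so no list is independent evidence of its direction. Alternatives were other pseudocounts, minimum means, scalings and size rules. Gene positions are those of GENCODE vM21 and figures were drawn with matplotlib 3.10.9.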

Additional observations from a re-analysis of the deposited data

Results flagged for a closer look

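Each gene here changed by at least 0.5 on the log2 scale in opposite directions in the 2 pairs, among the named genes reported here. With 1 library per group the difference was not tested for any of them.

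Higher at 39.5 °C in WT and lower with the KO label were Basp1 (difference of −2.75), Ndrg1 (−2.69), Tgm2 (−2.09), Atp2b4 (−2.03), Ypel5 (−2.00), Vim (−1.95) and Prss12 (−1.78). Immune genes with that arrangement were Tnfrsf9 (−1.55), Il7r (−1.51), Cxcr4 (−1.38) and Bcl2 (−1.24). Il7r, the survival receptor of naive and memory T cells, stood at 1.62, 3.89, 7.96 and 4.85 RPKM. All 11 of these genes had their highest level in the KO-labelled library at 37 °C, except Prss12, which was highest in WT at 39.5 °C (8.08, 15.6, 10.3 and 5.05 RPKM).

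Lower at 39.5 °C in WT and higher with the KO label were Hpdl (1.36) and the short genes mt-Ty (1.59), Trbj1-7 (1.82), Traj52 (3.05) and Traj33 (3.13). The microRNA gene Mir3091 (−1.83) and the joining segment Traj34 (−1.78) had the opposite arrangement. Reads were few in the joining segments and in Mir3091, with 8, 3, 3 and 5 in Trbj1-7, 5, 11, 13 and 7 in Traj34 and 16, 33, 23 and 12 in Mir3091, while mt-Ty had 199, 134, 40 and 81.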

How the results depend on the processing

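With 1 library per group no library could be left out. No paired analysis was possible because each group has 1 library and no result comes from a test. The counts of genes past the size rule moved most, while lower differences outnumbered higher ones under each setting run. The higher and lower counts, 92 and 212 as reported, were 212 and 416 with a pseudocount of 0.1, 11 and 64 with a pseudocount of 5, 37 and 92 with a minimum mean of 5 RPKM, and 528 and 819 with a 1.5-fold rule. For the genes 2-fold higher in WT, the kept, reduced, lost and reversed counts were 96, 123, 146 and 26 with a pseudocount of 0.1 and 11, 22, 21 and 0 with a pseudocount of 5. With a minimum mean of 5 RPKM the first 3 were 26, 42 and 27, and with a limit of 0.25 for a lost response the last 3 were 111, 31 and 12. For the genes 2-fold lower in WT the same 4 counts were 56, 43, 53 and 13, then 2, 13, 5 and 0, with the 2 pseudocounts. With a minimum mean of 5 RPKM the last 3 were 15, 13 and 2. The lost count was 11 with the limit of 0.25, and the kept count 12 with libraries scaled to summed reads.

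Of 217 list medians recomputed, 208 moved by less than the median half-width of their members' counting intervals and 9 by more. Of these 217, 12 changed sign, in 7 lists. T helper cytokines had −0.46 with a pseudocount of 5 and −0.038 with the minimum of 5 RPKM. Chemokines changed sign with that minimum, from 0.11 to −0.87, and chemokine receptors from −0.47 to 0.0016, with −0.13 for a pseudocount of 0.1. The other 10 sign changes were in lists with a reported median within 0.11 of 0. Glycolysis had −0.066 and p53 targets −0.37 with a pseudocount of 5, p53 targets −0.35 without a minimum, and mitochondrially encoded genes −0.13 with upper quartile scaling. The minimum leaves fewer genes in a list, and for the pseudocounts and scalings the cause was not tested. Of 1158 differences of named genes recomputed, 57 moved beyond their counting interval and 9 changed sign, in 8 genes. Ccl3 went from −0.87 to 0.66 with a pseudocount of 0.1 and Il9 from 0.06 to −0.51 with a pseudocount of 5, and in the other 6 genes the reported difference was under 0.25 in size. The 3 other scalings shifted the median of all genes by −0.0408 at most, and lower genes stayed between 69.7% and 73.5% of those past 2-fold.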

Other observations

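Calcium-binding S100 genes, picked by name after their values had been seen, had smaller steps with the KO label for 4 of 5 members. S100a10, the partner of annexin A2, stood at 62.7, 108, 111 and 141 RPKM, and S100a11 at 52.1, 95.3, 84.4 and 114 RPKM. S100a6 was the exception, at 3.81, 4.21, 7.34 and 10.6 RPKM.

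A few strongly regulated genes were low in both WT libraries and came down with temperature mainly in the KO-labelled pair. H2-Ab1, an MHC class II chain, stood at 4.56, 3.23, 59.6 and 19.3 RPKM, the syndecan gene Sdc4 at 3.599, 3.31, 24.9 and 6.97 RPKM and the prion protein gene Prnp at 15.9, 17.1, 37.5 and 15.1 RPKM. Serpinf1 stood at 14.3, 14.3, 123 and 58.2 RPKM and the sialyltransferase gene St6gal1 at 10.99, 11.1, 52.9 and 25.7 RPKM. The tautomerase gene Ddt and its neighbour Gstt2 were the reverse case, higher at 39.5 °C mainly with the KO label, at 59.9, 80.5, 50.8 and 136 RPKM and 13.6, 19.7, 14.96 and 41.9 RPKM. These genes were chosen after their values had been seen.

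A date stands in place of a gene name in 20 of the deposited rows, and 1 such name occurs in more than one row, so these rows could not be matched to a gene.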
